A study of Mus musculus with 26 samples.

Results

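The regions described here are the intronic and intergenic ChIRP-seq peaks of MaTAR25 that were found in every one of the 4 deposited peak lists. MaTAR25 is a nuclear long noncoding RNA of mouse mammary tumor cells. In ChIRP, cells are fixed, biotinylated DNA oligonucleotides complementary to one RNA are used to pull that RNA out, and the chromatin that comes with it is sequenced. The oligonucleotides of MaTAR25 were numbered 1 to 14 and used as 1 total pool or as 2 half-pools, the 7 even-numbered and the 7 odd-numbered oligonucleotides. Because the half-pools share no oligonucleotide, a locus recovered by both is commonly given more weight in ChIRP than a locus recovered by one. Introns and intergenic DNA hold many enhancers and most repeats of a mammalian genome, and the largest mouse genes consist almost wholly of intron.

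A member was a peak of the 4T1-total list that was annotated as intron or Intergenic, lay on an autosome other than chromosomes 2 and 3, and overlapped by at least 1 bp a peak of the 4T1-even, the 4T1-odd and the NDL-total list. There were 7990 members among 57005 intronic and intergenic peaks of the 4T1-total list on the same 17 autosomes (14.0%, 95% Wilson interval 13.7 to 14.3) and among 76806 peaks of that list in all. Chromosomes 2 and 3 were left out by the rule, since the 4T1-even list held 8877 peaks on chromosome 2 and 0 on chromosome 3. In GENCODE vM21, the middle base of 31 members (0.388%) lay in an exon and that of 1 member in coding sequence, and 433 members (5.42%) touched an exon with some part of the peak.

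The 4T1 line is a BALB/c mammary carcinoma cell line, labelled wild type for ChIRP-seq. The NDL cells are labelled as primary cells of an FVB mammary tumor with the genotype MMTV-PyMT, whereas the study describes the model as MMTV-Neu-NDL and names the ChIRP cells cNeu, a line of that model. The lists rest on 2 samples for 4T1-total, 3 for 4T1-even, 2 for 4T1-odd and 2 for NDL-total. The authors pooled them before peaks were called against a pulldown of Ppib (cyclophilin B) RNA. No error between replicates can therefore be given for any peak score. The Ppib pulldown has 1 sample in 4T1 cells and 1 in NDL cells, so the 4T1 lists had no separate background samples. RNA-seq came from the same line, with 2 control libraries (labelled wild type), 3 libraries of the MaTAR25-/- clone KO1 and 4 of the MaTAR25-/- clone KO2. Each knockout group was 1 single-cell clone in which CRISPR/Cas9 had deleted DNA over the MaTAR25 start site, and control cells carried a guide against Renilla luciferase per the study's methods. The libraries of a group were not stated to come from separate cultures, so p-values measure the spread between libraries.

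The sequences that the results turn on are those of the oligonucleotides themselves, because stretches of them recurred in the members. For the 7 oligonucleotides found in more than 1% of the members, the 12 bases present in the most members are in capitals, written 5′ to 3′.
Oligo 2 (even): aaGAGTCTGACTTCttggca
Oligo 3 (odd): TCCTGGAGATGCattttttc
Oligo 4 (even): cagGTGGTGGAGATGgaatg
Oligo 5 (odd): gaaAGGAAACACCCAggtca
Oligo 6 (even): aGTCACAGAGAAGgacggcg
Oligo 11 (odd): agaAGGAATGTCACCtgtca
Oligo 12 (even): aataGGGAGAAGGGAGgctc

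The highest-scoring members show how such stretches sat in genomic DNA. The longest match to any of the 14 oligonucleotides is in capitals, and each window is written on the strand that carries the letters of the oligonucleotide, from GRCm38.
Tns1 intron, chr1:74048512-74048571, plus strand, oligo 4: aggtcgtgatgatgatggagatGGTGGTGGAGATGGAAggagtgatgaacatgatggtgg
Intergenic, chr9:14165371-14165424, minus strand, oligo 4: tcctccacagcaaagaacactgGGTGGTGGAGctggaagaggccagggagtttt
Gm32171 intron, chr9:33227511-33227572, minus strand, oligo 12: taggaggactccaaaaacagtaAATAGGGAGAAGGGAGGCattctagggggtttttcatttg
Pvt1 intron, chr15:62063754-62063812, plus strand, oligo 4: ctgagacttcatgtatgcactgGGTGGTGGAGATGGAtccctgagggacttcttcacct
Adcy8 intron, chr15:64773275-64773334, minus strand, oligo 11: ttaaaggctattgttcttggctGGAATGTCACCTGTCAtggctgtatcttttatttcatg
Intergenic, chr12:112685118-112685178, minus strand, oligo 4: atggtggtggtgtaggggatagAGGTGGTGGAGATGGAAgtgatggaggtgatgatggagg
Intergenic, chr8:125268794-125268852, minus strand, oligo 2: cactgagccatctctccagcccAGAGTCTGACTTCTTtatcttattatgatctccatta
Intergenic, chr9:14021630-14021687, minus strand, oligo 6: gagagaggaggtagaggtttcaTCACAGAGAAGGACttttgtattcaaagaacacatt
Of the 10 highest-scoring members, 9 held a match of 14 to 18 bases, and the intergenic one at chr9:14164926-14165931 had a longest match of 10 bases.

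The member with the highest score lay in intron 3 of 32 of Tns1 (chr1:74048222-74049127), the gene of tensin 1, which links integrins at focal adhesions to the actin cytoskeleton. The study describes its target region in Tns1 as the promoter region of isoform 3. The first bases of the sequence it prints for that region are in the Tns1 window above. The peak score of the Tns1 member, HOMER's value for the pooled reads of a peak, was 3162 in the 4T1-total list. It was 1772 in the 4T1-even list, 4136 in the 4T1-odd list and 2740 in the NDL-total list. How the score was scaled is not stated, so scores are compared only within a list. The second was intergenic (chr9:14164926-14165931), 38.7 kb from the nearest annotated transcript start, that of Gm47564, and scored 2190, 1292, 4714 and 722 in the same order of lists. The third lay in intron 1 of the lincRNA gene Gm32171 (chr9:33227307-33228056) and scored 2002, 1232, 1326 and 915. The fourth lay in intron 1 of Pvt1 (chr15:62063479-62064479), a lincRNA gene beside Myc, and scored 1843, 1145, 4073 and 834. All 4 were therefore high in both half-pools. So were the intergenic members at chr12:112684437-112685865, with 1612 in the 4T1-even and 1430 in the 4T1-odd list, and chr9:14021427-14022303, with 884 and 2753.

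The other 4 members of the top 10 were high in one half-pool and ordinary in the other, where the members had median scores of 81.9 (4T1-even) and 61.0 (4T1-odd). The member in intron 7 of Adcy8, which encodes an adenylyl cyclase (chr15:64773084-64773833), scored 1758 in the 4T1-total list and 4941 in the 4T1-odd list, but 43.2 in the 4T1-even list, and its match of 16 bases was to odd-numbered oligo 11. The intergenic member at chr8:125268700-125269449 scored 1658 in the 4T1-total list and 1198 in the 4T1-even list, but 48.2 in the 4T1-odd list, and its match of 15 bases was to even-numbered oligo 2. Intergenic members at chr15:56505118-56505868 and chr15:61795863-61796613 scored 948 and 781 in the 4T1-even list and 58.4 and 74.2 in the 4T1-odd list, with matches of 15 bases to oligo 2 and 16 bases to oligo 12. The lowest peak of the 4T1-even list scored 12.3 and the lowest of the 4T1-odd list 13.2. The rule asks only that a peak was called in each list, so it admitted these members beside those high in both.

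Over all members the median score in the 4T1-total list was 112 (quartiles 62.8 and 220), against a median of 21.2 to 80.3 for noncoding peaks with any other set of overlapped lists. These scores are a description, because a peak had to be called 4 times to be a member. The share of noncoding peaks that were members was 0.614% in the lowest of 10 equal classes of 4T1-total score and 45.3% in the highest. All 8 noncoding peaks of these autosomes among the 10 highest of the 4T1-total list were members, as were 63 of the 84 among the highest 100. Across the 7990 members, the scores of the 4T1-total and NDL-total lists had a Spearman correlation of 0.92, those of the 4T1-even and NDL-total lists 0.8293, and those of the 4T1-even and 4T1-odd lists 0.366. The first of these pairs shares all 14 oligonucleotides, and the last shares none. Pairs that share 7 differed among themselves. With the 4T1-odd list the correlations were 0.570 (4T1-total) and 0.541 (NDL-total), and the 4T1-even and 4T1-total lists had 0.861. The cause of these differences was not tested. Of the members, 51.1% were above the median of both half-pool lists, 28.8% above that of the 4T1-even list only, 9.63% above that of the 4T1-odd list only, and 10.5% in neither.

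Members were 500 to 3344 bp long with a median of 625 bp, and 2255 had exactly 500 bp. The stretch shared by the 4 peaks had a median of 483 bp, while 189 members had no base that lay in all 4. At the edge of the rule, 17 members had a narrowest overlap of at most 100 bp (median 4T1-total score 52.6), and 28 peaks missed one list by a gap of at most 100 bp (median 42.0). The share of peaks found in all lists was 14.2% for intronic peaks (interval 13.8 to 14.6), 13.9% for intergenic peaks (13.5 to 14.3), 14.1% for promoter peaks (12.8 to 15.5), 15.0% for peaks at transcript ends (13.7 to 16.5) and 17.6% for exonic peaks (16.2 to 19.2). The interval of exonic peaks lay above those of intronic, intergenic and promoter peaks.

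Exact matches to an oligonucleotide of MaTAR25, 12 bases or longer, on either strand, were in 2922 members (36.6%, interval 35.5 to 37.6). Regions of the same length 10 kb away held one in 1.69% (1.429 to 1.996), a 21.6-fold lower share, and other noncoding peaks of the 4T1-total list in 21.98% (21.6 to 22.3). Matches to the 8 oligonucleotides of Ppib were in 0.426% of members and in 0.914% of the regions 10 kb away. The longest match had 18 bases, in 3 members, and no member held 19 or all 20 bases of an oligonucleotide, for which a count of 0 allows a share of up to 0.0375%. No match of 12 bases was found in 5068 members (63.4%). Intervals and limits cover counting error only, and peaks are not replicates.

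The even-numbered oligonucleotides accounted for most of the matches. They matched 27.1% of the members and the odd-numbered ones 10.5%, and only 85 members (1.06%, interval 0.861 to 1.31) held a match to both, although every member was called with both half-pools. Oligo 4 matched 1090 members (13.6%), oligo 6 matched 552 (6.91%), oligo 5 matched 449 (5.62%) and oligo 12 matched 372 (4.66%), while oligos 1, 7, 8, 9, 10, 13 and 14 each matched under 1%. Of the members with an even match, 20.4% had an odd match of at least 10 bases (14.7% in the regions 10 kb away) and 3.93% one of at least 12 bases (0.831%). Of those with an odd match, 31.4% had an even match of at least 10 bases (18.5%) and 10.1% one of at least 12 (0.713%). The shares were thus above those 10 kb away. For matches of at least 12 bases they were below those of all members, 10.5% for odd and 27.1% for even matches. Most members with a match to one half-pool had none of this length to the other.

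**Figure D1:**
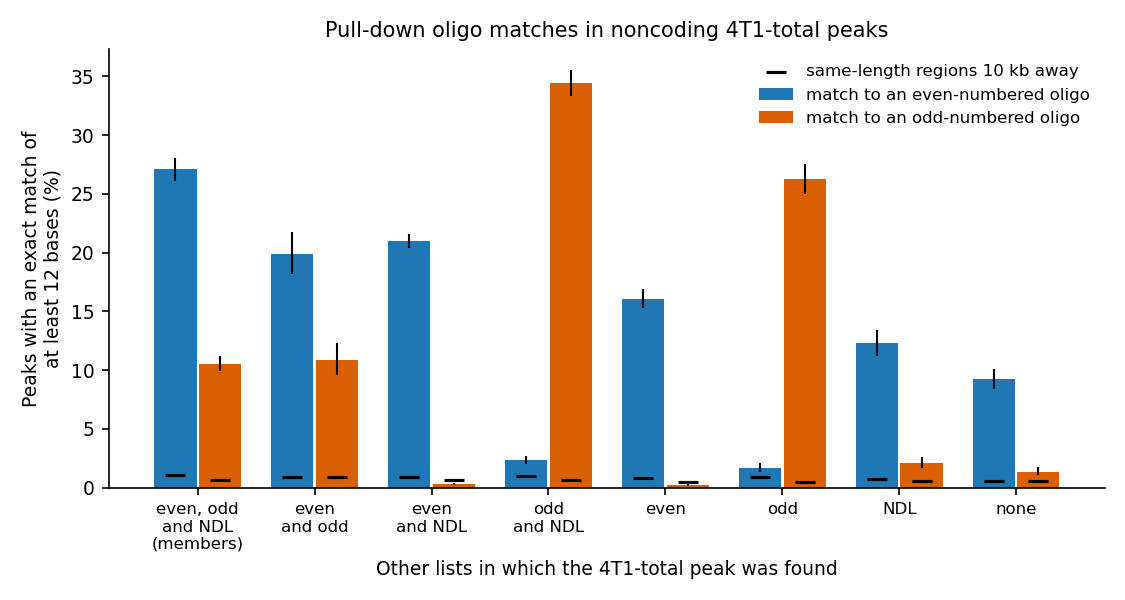
Share of noncoding 4T1-total peaks with an exact match (12 bases or more) to an even-numbered (blue) or odd-numbered (orange) oligonucleotide, in percent, by the other lists in which the peak was found. Bars are shares, vertical lines 95% Wilson intervals and short black lines the shares in regions of the same length 10 kb away; members held both kinds (27.1 and 10.5%), whereas peaks found in the even and NDL lists held odd matches in 0.308% and peaks in the odd and NDL lists held even matches in 2.31%.

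The plot of matches by list shows how rare the matches of one half-pool were in peaks found with the other. Among peaks of the 4T1-even and NDL-total lists without a 4T1-odd peak, 20.98% held an even match and 0.308% an odd match, against 0.867 and 0.668% in the regions 10 kb away. Among peaks of the 4T1-odd and NDL-total lists without a 4T1-even peak, 34.4% held an odd match and 2.31% an even match (interval 1.98 to 2.68), against 0.675 and 0.970% in the regions 10 kb away. Odd matches in the first group were thus below their level 10 kb away, and even matches in the second above it. The members lay between these groups for odd matches and above both for even matches.

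The score of a member followed the half-pool that its sequence matched. The 2080 members with an even match only had median scores of 149 in the 4T1-even list and 76.5 in the 4T1-odd list, and the 757 with an odd match only had medians of 49.5 and 298. By percentile among the members, 94.6% of those with an odd match only ranked higher in the 4T1-odd than in the 4T1-even list, and 66.4% of those with an even match only ranked higher in the 4T1-even list. The 5068 members without a match had medians of 69.4 and 46.3 and were divided almost evenly, with 52.8% ranking higher in the 4T1-even list. Where the even percentile was at least 50 points above the odd one (485 members), 44.1% held an even match and 0.619% an odd match, and where it was at least 50 points below (699 members), the shares were 5.58 and 47.9%. How much of the pulldown at these sites ran through oligonucleotide letters in DNA was not tested.

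The top of the 4T1-odd list did not follow this pattern. Of the 100 members with the highest 4T1-odd scores, 28 held an odd match and 51 an even match, whereas of the 100 with the highest 4T1-even scores, 70 held an even match and 3 an odd match. In the Tns1 intron the longest odd match had 10 bases, and in the Pvt1 intron it had 8 bases, although their 4T1-odd scores were 4136 and 4073.

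**Figure D2:**
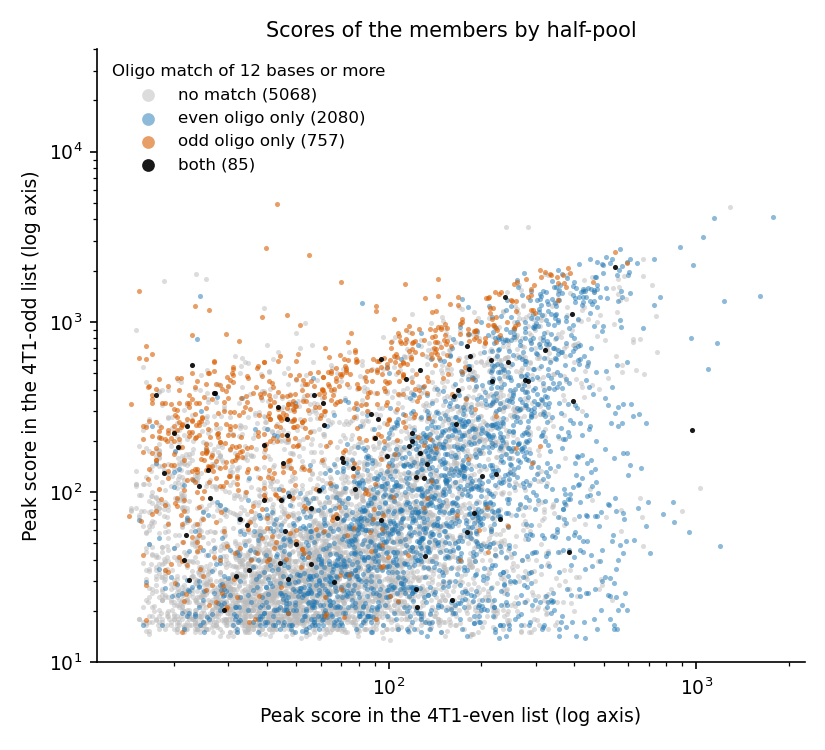
Peak score of each of the 7990 members in the 4T1-even list (horizontal, log axis) and the 4T1-odd list (vertical, log axis), colored by the half-pool with an exact match of at least 12 bases. Members with an odd match only (orange, 757) had a median 4T1-odd score of 298 and a median 4T1-even score of 49.5, and members with an even match only (blue, 2080) had medians of 76.5 and 149; members without a match are gray.

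Only a few members carried 12 or more bases from both half-pools. The highest-scoring of the 85 was intergenic (chr13:16362141-16363814), 10.2 kb from the start of Gm48492, and scored 872 in the 4T1-total list, 971 in the 4T1-even list, 233 in the 4T1-odd list and 1384 in the NDL-total list. Its match to oligo 4 lay in a TGG-rich stretch near the middle of the peak, and its match to oligo 3 started 16 bases into the peak, as these windows show.
chr13:16363050-16363108, plus strand, oligo 4: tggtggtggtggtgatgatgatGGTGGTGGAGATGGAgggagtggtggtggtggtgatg
chr13:16362141-16362190, plus strand, oligo 3: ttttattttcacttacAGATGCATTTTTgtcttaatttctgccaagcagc
The 85 members were long, with a median of 1025 bp against 625 bp for members without a match.

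The match lay close to the middle of the peak, and its median shift to the left depended on the strand. Its middle was within 100 bp of the peak centre in 61.2% of the 2922 members, against 25.2% of the 135 regions 10 kb away that held a match, and the median distance was 80.0 bp against 192 bp. In the 1470 members whose plus strand carried the letters of the oligonucleotide, the median position was 11 bp to the left of the centre of the 4T1-total peak (quartiles -35.0 and 28.8 bp, positive towards higher coordinates). In the 1452 members whose minus strand carried them, it was 100 bp to the left (quartiles -128 and -58.4 bp). The same order was seen from the centres of the 4T1-odd peaks for odd matches (medians -27.0 and -97.5 bp), of the 4T1-even peaks for even matches (-36.0 and -71.5 bp) and of the NDL-total peaks (-22.3 and -97.3 bp). In the regions 10 kb away the medians were -74.5 bp for 71 plus-strand matches (quartiles -262 and 118 bp) and -1.75 bp for 64 minus-strand matches (-203 and 140 bp), a spread wide enough to cover both positions.

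**Figure D3:**
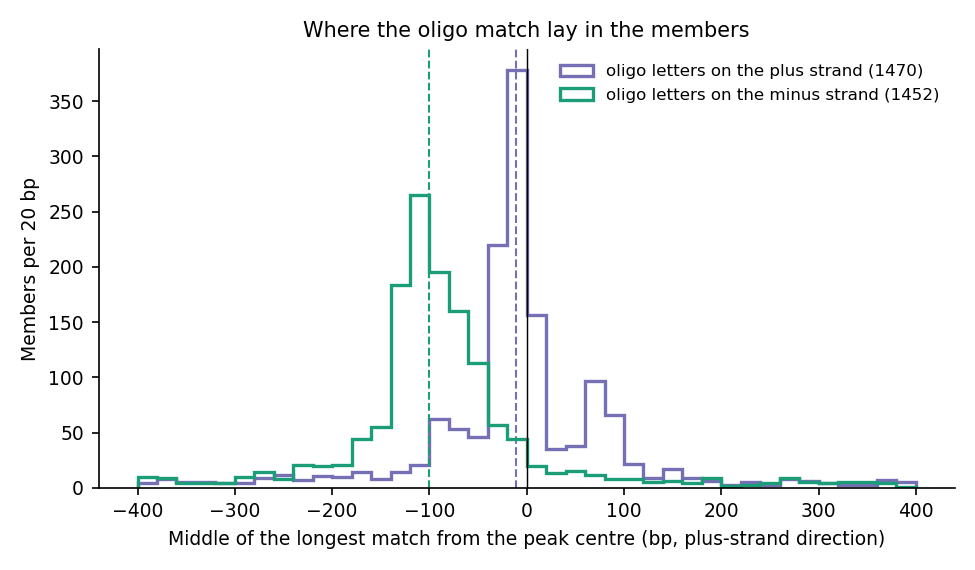
Number of members in bins of 20 bp by the distance from the peak centre to the middle of the longest match, in bp along the plus strand, for matches with the oligonucleotide's letters on the plus (purple, 1470) or minus (green, 1452) strand. Dashed lines are medians, at -11 and -100 bp, and 141 members with a match more than 400 bp from the centre are not drawn.

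Runs of the triplet TGG or its complement CCA, of 4 or more units, were in 274 members (3.43%, interval 3.05 to 3.85). They were in 0.563% of the regions 10 kb away and in 4.34% of the other noncoding peaks (4.16 to 4.52). The share in those other peaks depended on the lists they overlapped. It was 7.66% with the even and NDL lists and 4.28% with the even list only, above the share of members. It was 3.27% with the NDL list only and 2.85% with the even and odd lists, with intervals that include the members' share. It was 1.42% with no other list, 0.689% with the odd and NDL lists and 0.668% with the odd list only. Members with a run had a median 4T1-total score of 183 against 110 without one, and 16.8% of them matched oligo 4 against 13.5% of the others. The longest run had 20 units in an intron of Nmu, the gene of the neuropeptide neuromedin U, in a peak with a 4T1-total score of only 34.5 and no match of 12 bases.
chr5:76355118-76355209, plus strand: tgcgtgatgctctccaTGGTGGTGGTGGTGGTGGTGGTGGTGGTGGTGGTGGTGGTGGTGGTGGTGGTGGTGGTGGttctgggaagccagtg
The capitals mark the run. The 5 bases GGTGG, on either strand, were in 84.7% of members, in 71.8% of the regions 10 kb away and in 76.1% of other noncoding peaks, and 34.0, 22.5 and 25.3% held 3 or more copies. Any overlap of GGTGG with a TGG run or with oligo 4 was counted in both.

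Soft-masked repeat sequence made up 25.5% of the members and 30.8% of the regions 10 kb away, and the GC content was 43.9 and 43.0%. Intronic and intergenic members were alike in median length (625 and 626 bp), and differed little in median 4T1-total score (115 and 108) and in the share with an oligonucleotide match (35.12 and 37.95%).

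Members were spread over all 17 autosomes. The share of noncoding peaks that were members ran from 12.5% on chromosome 19 (interval 11.03 to 14.04) to 15.3% on chromosome 7 (14.1 to 16.6), and there were 3.13 (chromosome 14) to 4.44 (chromosome 8) members per Mb. The nearest other member was a median of 79690 bp away, and 8.09% had one within 10 kb. A window of 1 Mb held a median of 3 members and at most 13, which was reached on chromosome 8 from 117 to 118 Mb and on chromosome 4 from 124 to 125 Mb. High scores were less evenly placed, as 17 of the 100 highest members were on chromosome 1, 16 on chromosome 9 and 12 on chromosome 15. Within 1 Mb of the interval from Myc to Pvt1 (chr15:60985391-63378096) there were 13 members among 99 noncoding peaks (13.1%, against 14.0% on all 17 autosomes). Their median 4T1-total score was 328, and 4 of the 100 highest lay there. On the first 45 Mb of chromosome 9 there were 203 members among 1361 noncoding peaks (14.9%), with a median of 152. Of these members, 14 were among the highest 100. Copy number of these chromosomes in 4T1 and NDL cells was not analysed here.

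The nearest annotated transcript start was a median of 18.9 kb from a member (13.0 kb for intronic and 26.2 kb for intergenic members), and 33.8% of members were within 10 kb of one, as were 33.6% of other noncoding peaks. First introns held 35.2% of intronic members (interval 33.7 to 36.7) and 34.9% of other intronic peaks (34.3 to 35.5).

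The 3898 intronic members lay in 2678 host genes, after 8 members whose transcript has no match in GENCODE vM21 were set aside. Of the hosts, 2226 (83.1%) were protein-coding and 425 (15.9%) were long noncoding RNA genes, and 2021 (75.5%) held a single member. Hosts were long genes. The median span was 103 kb for protein-coding hosts and 17.8 kb for all protein-coding genes of these autosomes. Of genes under 50 kb, 4.37% held a member (interval 4.04 to 4.73), rising to 42.4% at 100 to 200 kb and 92.5% above 500 kb (87.8 to 95.5). Per Mb of span the numbers were closer, at 2.97 members under 50 kb and 3.78 to 4.48 in the longer classes.

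The 7 host genes described here as those with the most members, 8 to 13 each, were annotated over 913 kb or more. Sdk1, which encodes a homophilic adhesion protein of synapses, held 13 members over 974 kb. Nrxn3 (a presynaptic neurexin), Rbms3 (an RNA-binding protein) and Fgfr2 (a fibroblast growth factor receptor) held 10 each. So did Gm20388, an annotated model of 4435 kb that covers other genes. The annotated span of Fgfr2 was 2961 kb, and an Fgfr2 transcript start was the nearest one to only 3 members. Camta1 (a calmodulin-binding transcription activator) held 9. Wwox (an oxidoreductase gene at a fragile site) held 8, with the highest-scoring member among the hosts that tied at 8. Their highest members scored 237 to 911 in the 4T1-total list, far below the Tns1 member. In a list of 62 adhesion and synapse genes with long introns, 48 of the 55 on these autosomes held 190 members, but only 11 of the 48 had enough RNA counts to be tested. A list of 55 focal adhesion and actin linkage genes (56 by identifier) gave 19 hosts with 39 members among 46 on these autosomes.

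RNA counts per library summed to 25367211 to 61110585 over genes. MaTAR25, which lies on chromosome 2 and so holds no member, was counted 35 and 30 times in control cells. The KO1 libraries had 2, 7 and 0 reads and the KO2 libraries 11, 1, 9 and 6. In CPM (counts scaled to a common library size, here with TMM) no KO library reached a control library, and the log2 fold change was -2.63 ± 0.82 (SE, n = 2 and 7, edgeR adjusted p = 0.0561, exact permutation p = 0.0278, which is the smallest p that 2 against 7 libraries can give). The epithelial markers Krt8, Krt18, Krt19, Epcam and Cdh1 were all at 80.1 CPM or more in every library and summed to 2951 to 3089 CPM in control and 1492 to 3981 CPM in KO libraries. Cdh1, the gene of E-cadherin and itself a host, was lower in every KO library (354 to 669 against 759 to 939 CPM, log2 fold change -0.65, edgeR adjusted p = 0.0684), while Krt8 reached 1410 CPM in KO against at most 452 in control. The macrophage marker Cd68 stood at 3.17 to 4.19 CPM in control and 1.77 to 28.3 in KO libraries. The part of these differences in the results on hosts was not tested. The 5 fibroblast, 5 leukocyte and 4 endothelial markers summed to at most 47.5, 28.4 and 1.68 CPM. Of the fibroblast markers, Pdgfra stood at 17.7 to 21.8 CPM in control and 11.7 to 46.9 CPM in KO libraries. Col1a1 stood at 2.65 to 3.99 CPM in control and 0.0842 to 0.995 CPM in KO libraries. Pdgfrb stood at 0.0305 CPM or less, and Dcn and Lum at 0, in every library. In bulk RNA, fewer cells of a type and less RNA per cell cannot be told apart.

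Of the host genes, 2473 had counts and 1483 passed the filter on low counts and were tested. The tested hosts had a median of 5.17 RPKM (CPM per kilobase of exon) in control cells, and all 14949 tested genes with a length 5.29 RPKM. Among tested protein-coding genes alone, the 1431 hosts had a lower median than all 12542 (5.41 and 7.06 RPKM). Among protein-coding genes over 50 kb, 64.6% of the hosts were expressed enough to be tested (interval 62.3 to 66.9). Of those without a member it was 71.1% (69.3 to 72.9). Over all protein-coding genes the order was reversed, at 64.7% of hosts (62.7 to 66.7) and 59.4% of other genes (58.6 to 60.2). These groups were not matched in span. Tested were 348 of 479 hosts of 50 to 100 kb, 268 of 454 of 200 to 500 kb and 55 of 173 over 500 kb. What part of either difference goes with span was not tested.

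Between KO and control cells, 339 of the 1483 tested host genes passed an adjusted p of 0.1 in edgeR, which is 22.9%, and 22.6% of all 15023 tested genes did. The share of changed genes was therefore that of the background. The directions differed from it, with 131 hosts higher in KO (8.83%, background 11.9%) and 208 lower (14.0%, background 10.7%), and the median log2 fold change was -0.06 for hosts and 0.06 for all tested genes. The hosts with 2 or more members showed 25 higher and 58 lower of 350 tested. The libraries of KO and control did not overlap for 33.2% of the hosts and 34.4% of all tested genes. In KO1, 169 hosts were higher (11.4%, background 15.9%) and 305 lower (20.6%, background 15.7%), and in KO2 198 were higher (13.4%, background 16.5%) and 277 lower (18.7%, background 15.0%). Both clones were compared with the same 2 control libraries. Without control replicate 1 the median log2 fold change between KO and control was -0.03 for hosts and 0.09 for all tested genes. Without control replicate 2 it was -0.05 and 0.08. Both fits rest on 1 control library and called far fewer hosts, as they did of all tested genes.

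Gene length moved with this difference in direction. For tested protein-coding genes without a member, the median log2 fold change was 0.11 under 50 kb and -0.04 at 50 to 100 kb. It was -0.14 at 100 to 200 kb and -0.20 at 200 to 500 kb. In the same order of classes, protein-coding hosts had 0.02, -0.03, -0.09 and -0.16. What part of the hosts' lower direction goes with their length was not tested. By these medians the hosts were lower than other genes under 50 kb and no lower from 50 to 500 kb. Above 500 kb only 5 genes without a member were tested. The share called was near that of other genes in each class up to 500 kb (24.8 against 24.0%, 21.6 against 22.5%, 21.4 against 21.6% and 26.9 against 23.0%). Nor did the score of the highest member order the hosts, since the share called was 21.8, 21.3, 25.9 and 22.4% from the lowest to the highest of 4 equal classes of score. Genes of the nearest promoter of intergenic members were called in 160 of 739 cases (21.7%), 83 higher and 77 lower. This was near the background, since 22.6% of all tested genes were called, 11.9% higher and 10.7% lower.

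**Figure D4:**
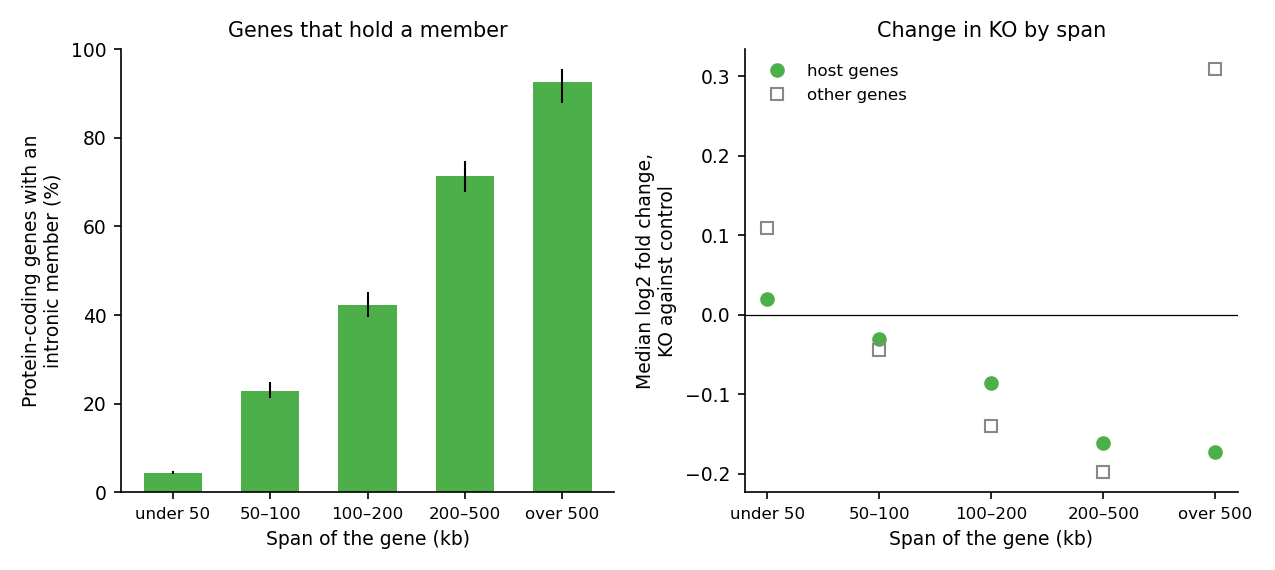
Left, share of protein-coding genes with an intronic member, in percent with 95% Wilson intervals, by annotated span in kb. Right, median log2 fold change between KO and control cells of tested protein-coding genes with (green) and without (gray) a member in the same classes of span; up to 500 kb both medians fall with span, from 0.02 and 0.11 to -0.16 and -0.20, and the gray point above 500 kb rests on 5 genes.

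The host genes of the highest-scoring intronic members showed no common change in RNA. Reads of Tns1 numbered 310 and 71 in control cells. KO1 had 77, 27 and 5 reads, and KO2 had 12, 9, 122 and 6. In CPM, control replicates 1 and 2 stood at 6.80 and 2.17, KO2 replicate 3 at 2.76 lay between them, and the other KO libraries lay between 0.123 and 1.23. The log2 fold change was -2.41 ± 0.93 (SE, edgeR adjusted p = 0.110, exact permutation p = 0.0556), so Tns1 did not pass the threshold, whereas with DESeq2 (adjusted p = 0.0598) and in the fit with 3 groups (adjusted p = 0.0880) it did. Without KO2 replicate 3 the log2 fold change was -3.10 and passed, and without control replicate 1 it was -1.35. By qRT-PCR and immunoblot, the study reports significantly lower Tns1 RNA and protein in knockout than in control cells.

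Pvt1 fell in both clones (edgeR adjusted p = 0.0107 in KO1 and 0.0419 in KO2). Its CPM was 37.5 and 24.6 in control, 12.3, 15.3 and 16.4 in KO1 and 20.6, 18.2, 18.9 and 17.98 in KO2, with no overlap, and the log2 fold change was -0.86 ± 0.23 (SE, edgeR adjusted p = 0.0300). Without control replicate 1 it was -0.51 (adjusted p = 0.442). Adcy8 had 0 counts in both control libraries. It had 2, 1 and 3 counts in KO1 and 21, 7, 13 and 16 in KO2, and its mean in KO was at least 5.82-fold higher than the limit of 3 counts over the control group (edgeR adjusted p = 0.0679, and 0.319 and 0.275 without control replicate 1 and 2). Levels of Adcy8 stayed below 1 CPM in every library. Ets1, the gene of a transcription factor with 3 intronic members, split the clones, at 288 and 254 CPM in control, 123 to 150 in KO1 and 203 to 414 in KO2. It fell in KO1 (log2 fold change -0.97 ± 0.25, edgeR adjusted p = 0.0219) and not by this test in KO2 (0.21 ± 0.24, adjusted p = 0.552), and the difference between the clones was 1.19 on the log2 scale (adjusted p = 0.0132). Of all tested hosts, 21.9% differed between the clones, and 19.6% of all tested genes did.

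The remaining hosts of that group did not pass the test. Rai14, which encodes an actin-binding protein, stood at 193 ± 16.8 CPM in control and 280 ± 69.3 CPM in KO (SD, n = 2 and 7, edgeR adjusted p = 0.202), and Usp34, a deubiquitinase gene, at 274 ± 15.8 and 219 ± 33.6 CPM (adjusted p = 0.223). Gpr39, the gene of a zinc-sensing receptor, stood at 10.3 ± 0.0705 and 8.89 ± 4.11 CPM (adjusted p = 0.810), and Kirrel3, an adhesion gene, at 1.72 ± 0.235 and 3.04 ± 1.91 CPM (adjusted p = 0.494). Ankar had 0 counts in all 9 libraries, and Gm32171 was not among the counted genes.

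Of these 7 hosts with the most members, only Camta1 passed the test. It fell from 20.0 and 23.7 CPM in control to 6.95 to 8.73 in KO1 and 5.67 to 10.0 in KO2 (log2 fold change -1.48 ± 0.24, SE, edgeR adjusted p = 0.00425). Fgfr2 and Wwox had adjusted p-values of 0.664 and 0.877. Sdk1, Gm20388, Nrxn3 and Rbms3 had at most 3 counts in any library and did not pass the filter.

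Among the genes the study names as ChIRP targets, Tns1, Pvt1, Lonp2, Zhx2 and Immp2l held 10 members between them, and 4 of these 5 were called lower in KO, as were 10.7% of all tested genes. Zhx2, which encodes a zinc-finger homeobox repressor, fell from 97.4 and 88.0 CPM to 26.0 to 45.2 CPM over the 7 KO libraries (log2 fold change -1.47 ± 0.20, edgeR adjusted p = 0.00243). Its highest member, in intron 1 (chr15:57716541-57717800), scored 610 in the 4T1-total list, 374 in the 4T1-even list and 97.2 in the 4T1-odd list. Lonp2, the gene of a peroxisomal protease, fell from 106 and 113 CPM to 50.2 to 79.8 CPM (log2 fold change -0.80 ± 0.19, adjusted p = 0.0218), with a member of score 299 in intron 2. Immp2l, a mitochondrial peptidase gene of 932 kb with 2 members, stood at 2.61 and 2.84 CPM in control and 0.974 to 1.86 in KO (log2 fold change -1.04 ± 0.32, adjusted p = 0.0543). Without control replicate 1 or 2, the edgeR adjusted p was 0.173 and 0.205 for Lonp2 and 0.275 and 0.325 for Immp2l, while Zhx2 passed without either. The study chose these genes with these samples at hand, so their direction is not independent evidence.

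The called hosts with the largest changes held members both below and above the member quartiles of 62.8 and 220. By the rule, these genes were the extremes of 304 called hosts with at least 1 CPM on average and no overlap between KO and control, of which 116 were higher and 188 lower. Cplx2, the gene of a complexin of the synaptic vesicle machinery, had 526 and 358 counts in control, 17 and 6 in KO2 replicates 1 and 4, and 0 in the other 5 KO libraries, and its member scored 45.5 in the 4T1-total list. Dcdc2a, a doublecortin-domain gene, fell from 7.66 and 5.12 CPM to 0 to 0.446 CPM (log2 fold change -4.61 ± 0.73, edgeR adjusted p = 0.00410). The antisense gene Gm26877 fell from 5.97 and 4.06 CPM to 0 to 1.09 CPM (-3.91 ± 1.01, adjusted p = 0.0274). The members of Dcdc2a and Gm26877 scored 44.0 and 37.7. The strand setting of the counting is not stated, so its reads cannot be told from those of an overlapping gene. Trabd2b, which encodes a membrane protease that acts on Wnt proteins, fell from 20.4 and 16.8 CPM to 0.406 to 4.18 CPM (-3.20 ± 0.67, adjusted p = 0.0126), and its member scored 324. Cplx2 and Dcdc2a passed without either control library, Gm26877 missed the threshold without either one (edgeR adjusted p = 0.198 and 0.135 without control replicate 1 and 2), and Trabd2b missed it without control replicate 1 (adjusted p = 0.127).

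The largest rises were of genes at or near 0 counts in control. Pmp22, a myelin protein gene, had 0 counts in both control libraries and 6 to 482 in the KO libraries, at least 125-fold higher than the limit of 3 counts over the control group. Pip5k1b, a phosphoinositide kinase gene, had 0 and 2 counts in control and 188 to 711 in 6 KO libraries, but 4 in KO2 replicate 4, and the ratio of summed reads was 320.0 (exact 95% counting interval 88.5 to 2644). Tgfbr3, the gene of the TGF-β co-receptor betaglycan, had 1 and 3 counts in control, 605 to 710 in KO1 and 35 to 71 in KO2 (log2 fold change 7.17 ± 1.94, edgeR adjusted p = 0.0335). Aqp1, a water channel gene, had 4 and 1 counts in control, 34 to 98 in KO1 and 12 to 921 in KO2 (6.12 ± 1.86, adjusted p = 0.0524). All 4 missed the threshold when either control library was left out, with edgeR adjusted p-values of 0.14 to 0.32. The intronic members of these 4 genes scored 144 to 319 in the 4T1-total list.

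**Figure D5:**
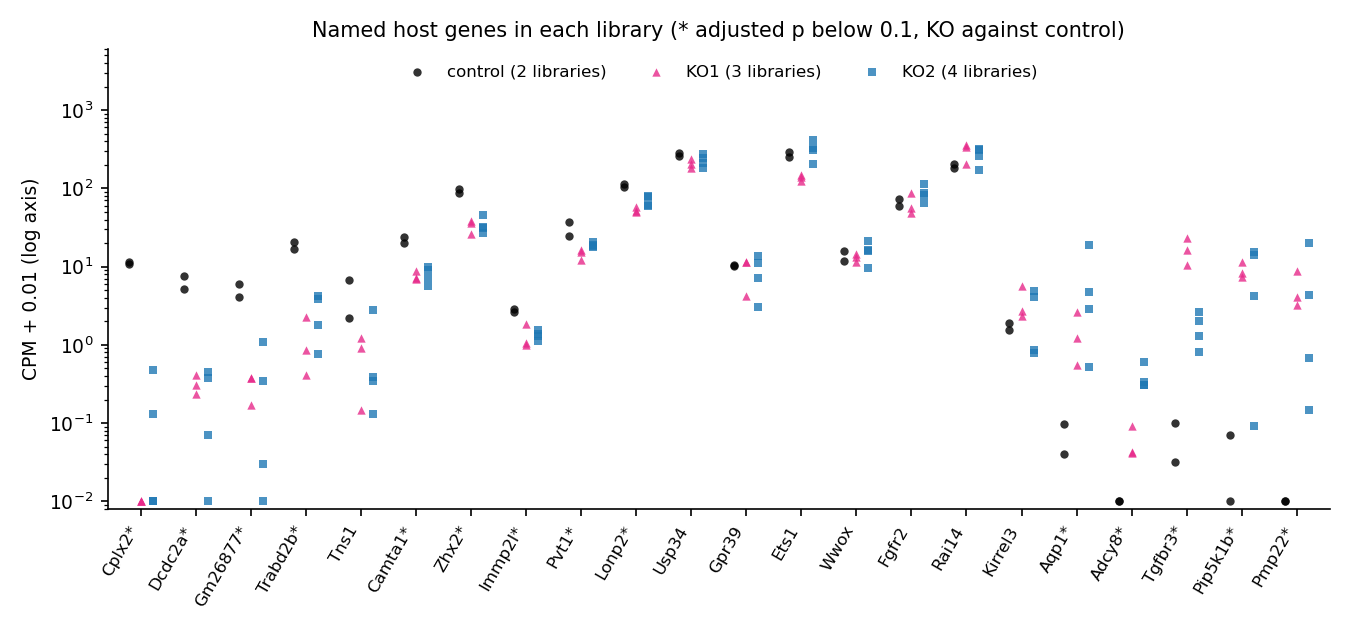
CPM (plus 0.01, log axis) of the 22 named host genes that were tested, 1 point a library, for control (black circles, 2), KO1 (pink triangles, 3) and KO2 (blue squares, 4), ordered by log2 fold change. Stars mark an edgeR adjusted p below 0.1 between KO and control, which 14 of the 22 genes reached (22.6% of all tested genes did), 8 of them chosen for being called; Tns1 lacks a star and its KO2 replicate 3 (2.76) lies among the control values.

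In the fixed lists, 18 hosts of the focal adhesion and actin linkage list were tested, of which Tns3 was called higher in KO and Itgb5, Trio, Arhgap26 and Lpp lower by edgeR, against 11.9 and 10.7% of all tested genes. DESeq2 called 7 of the 18, against 25.8% of all genes with an adjusted p in DESeq2. Lpp, a zyxin-related focal adhesion protein gene with 5 members, stood at 150 ± 15.6 CPM in control and 77.4 ± 13.4 CPM in KO (SD, n = 2 and 7, log2 fold change -0.95 ± 0.19 SE, edgeR adjusted p = 0.00961). Tns3, a relative of Tns1 with 2 members, stood at 271 ± 18.9 and 443 ± 95.4 CPM (0.71 ± 0.23, adjusted p = 0.0655). The median log2 fold change of the 18 hosts was -0.26, that of all 54 tested genes of the list -0.14 and that of all tested genes 0.06. Of the 11 tested hosts of the adhesion and synapse list, edgeR called 0 (adjusted p from 0.151 to 0.877). An unadjusted p below 0.05 in edgeR was reached by 1 of them. DESeq2 called 2 of the 11. Their median log2 fold change was 0.77 and that of all 14 tested genes of this list 0.88, both above that of all tested genes. Of all tested genes edgeR called 22.6%, and DESeq2 called 25.8% of those with an adjusted p.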

How the data were processed

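ChIRP-seq peak lists and RNA-seq counts were used as deposited. For ChIRP, the authors aligned reads with Bowtie2 to GRCm38, pooled the replicates of each pool, and called and annotated peaks with HOMER against a Ppib pulldown at an enrichment of at least 50-fold. The deposited lists give each peak a score. For RNA, the authors aligned with STAR and counted reads per gene with HTSeq on GENCODE vM5, and the deposited values are raw counts. Reads assigned to no gene (33.9 to 37.0% of a library) were left out. The file of KO2 replicate 2 lists each gene 3 times and was used once.

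The members and gene lists were chosen with earlier results of these data known. Peaks were intersected by position (at least 1 bp). Oligonucleotide letters, exact matches of at least 12 bases on either strand, TGG runs of at least 4 units and GGTGG were searched in the RefSeq GRCm38 genome, in each peak and in a region of the same length 10 kb away. Gene positions came from GENCODE vM21. Shares have 95% Wilson intervals.

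Counts were tested with edgeR 4.0.16 in R 4.3.3 (quasi-likelihood test, TMM, filterByExpr, Benjamini-Hochberg adjustment over all tested genes, threshold 0.1), KO against control and each clone against control. CPM used TMM library sizes. The exact permutation test, two-sided, used log2(CPM + 1). Named genes were hosts of the 10 highest-scoring intronic members, the 8 hosts with most members (1 of them is not reported here), the 4 called hosts that rose and the 4 that fell most (mean of at least 1 CPM, no overlap of libraries), and target genes named by the study that hold a member. The alternatives were DESeq2 1.42.0, other normalization, filters and thresholds, a replicate block, and leaving out each library. Python 3.11.15, numpy 2.4.6, pandas 2.3.3, scipy 1.17.1 and pysam 0.24.0 were used.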

Additional observations from a re-analysis of the deposited data

Results flagged for a closer look

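In 44 groups of 4 or 7 libraries of the named host genes, 6 values lay far from the rest of their group, 1 of them in 2 groups, and chance alone marks about 1 group in 20. Tns1 stood at 2.76 CPM in KO2 replicate 3, apart from the other 6 KO libraries and also from the other 3 KO2 libraries. Adcy8 stood at 0.586 CPM in KO2 replicate 1, apart from the other KO2 libraries. Among the 7 KO libraries, Cplx2 stood apart at 0.474 CPM and Gm26877 at 1.09 CPM, both in KO2 replicate 1. Pmp22 stood apart at 20.3 CPM in KO2 replicate 2, and Aqp1 at 18.8 CPM in KO2 replicate 4.

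The clones differed from each other in 3 of the 22 tested named genes, and 19.6% of all tested genes differed between them. KO2 minus KO1 was 2.91 on the log2 scale for Adcy8 (edgeR adjusted p = 0.0186), 1.19 for Ets1 (edgeR adjusted p = 0.0132) and -3.34 for Tgfbr3 (edgeR adjusted p = 0.00506).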

How the results depend on the processing

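The peak lists pool replicates, so no peak has an error, and all RNA comparisons rest on 2 control libraries and 1 clone per knockout group. With a score of at least 100 in the 4T1-total list 4385 regions remained, and with that score in every list 1787. The share with an oligonucleotide match, 36.6%, became 47.1% at a score of at least 100, 32.8% in the middle 500 bases, 73.3% for matches of at least 10 bases (26.9% in regions 10 kb away) and 9.90% for at least 14 bases (0.175%). The share with a TGG run, 3.43%, became 4.61% at a score of at least 100, 2.74% in the middle 500 bases, 9.69% for at least 3 units and 1.26% for at least 6. Of host genes called between KO and control (339), 209 were called with the replicate number as a block (14.1%, and 13.0% of all tested genes) and 224 at an adjusted p of 0.05 (15.1 and 14.9%). Leaving out 1 library gave 42 to 383, 170 to 572 for KO1 and 135 to 544 for KO2, lowest without control replicate 1 each time. For KO1, a fit of only the groups compared called 802 of 1428 (56.2%, and 54.1% of all tested genes). Of the named host genes, 14 were called, 6 of 13 with at least 10 counts in every library, and 4 to 15 with 1 library left out. The log2 fold change of Wwox ran from -0.093 (without control replicate 1) to 0.30 (without control replicate 2), with -0.036 without KO2 replicate 2, and was called in none of these. With the block, Pvt1 (adjusted p = 0.121), Adcy8 (0.193) and Immp2l (0.215) missed the threshold in edgeR. Libraries with the same replicate number had correlations of their deviations from -0.196 to 0.0558, so the numbers do not pair the libraries. The cause of these changes was not tested.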
